A study of Mus musculus with 7 samples.

Results

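The genes of the metabotropic glutamate receptor signaling route of Purkinje cells described here, *Gnaq*, *Homer3*, *Itpr1*, *Car8*, *Inpp5a* and *Dgkz*, were followed in ribosome-bound RNA from wild-type and *nm3888*-/- mice. They were picked by gene symbol for their known place in this route and make up 6 of the 55401 genes counted. The *nm3888* allele arose spontaneously and carries a retrotransposon inside an intron of the transcription factor gene *Rreb1*. The 3 wild-type mice were *Rpl22* fl/+; *PCP2-Cre*, and the 4 mutant mice carried the same alleles and were homozygous for *nm3888*. Both groups therefore expressed hemagglutinin-tagged RPL22, a ribosomal protein, wherever the Purkinje cell driver PCP2-Cre had acted, and tagged ribosomes were pulled from whole cerebellum with an antibody to the tag (the RiboTag method). All mice were 3 weeks old, and 1 cerebellum gave 1 library. The *nm3888* allele is present in every cell of a mutant mouse, not in Purkinje cells alone, and the strain background of each RiboTag mouse is not given in the sources used here.

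Group I metabotropic glutamate receptors sit around the parallel fiber synapse on Purkinje cell spines, where Homer proteins tie them to the IP3 receptor. They act through the G protein subunit Gq and phospholipase C beta, which splits the membrane lipid PIP2 into IP3 and diacylglycerol. IP3 opens the IP3 receptor and releases calcium from the endoplasmic reticulum, while diacylglycerol activates protein kinase C. This route is known for its place in long-term depression of the parallel fiber synapse, and mutations in several of its genes cause ataxia.

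The 6 genes lie on 6 chromosomes of the mouse build mm10. *Gnaq* (ENSMUSG00000024639.5, chr19:16132831-16387463, plus strand) encodes the Gq alpha subunit. *Homer3* (ENSMUSG00000003573.15, chr8:70282827-70294361, plus strand) encodes the main Homer scaffold of these cells, and *Itpr1* (ENSMUSG00000030102.11, chr6:108213096-108551109, plus strand) the type 1 IP3 receptor. *Car8* (ENSMUSG00000041261.9, chr4:8143362-8239041, minus strand) encodes a carbonic anhydrase related protein that has no enzyme activity and lowers the affinity of the type 1 receptor for IP3. *Inpp5a* (ENSMUSG00000025477.14, chr7:139389109-139579652, plus strand) encodes a phosphatase that removes the 5-phosphate of IP3, and *Dgkz* (ENSMUSG00000040479.12, chr2:91932824-91975864, minus strand) a kinase that turns diacylglycerol into phosphatidic acid. Exonic counts were summed over lengths that ran from 3440 bases in 10 merged exons for *Homer3* to 18319 bases in 64 for *Itpr1*. The longest single exon held 74.1% of the counted length of *Car8* and 12.0% of that of *Dgkz*, whose 34 exons were mostly short.

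Several of the 6 have close relatives, so the sequences of all annotated transcripts were compared to see whether reads could be split between genes. No other annotated transcript (GENCODE M21, GRCm38) shared a same-strand run of 100 bases, the length of a read, with one of the 6 genes. The longest same-strand runs were 92 bases for *Gnaq* and for *Itpr1*. Same-strand runs of at least 31 bases were shared with 0 other genes for *Dgkz* and up to 709 for *Itpr1*. Only identical runs were looked for, and reads can be trimmed or aligned with mismatches. The comparison therefore cannot show that no read was shared. No other gene on the same strand shared exon bases with them. On the opposite strand the largest overlap was 874 bases between *Homer3* and *Ddx49*, and counting had used the strand.

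Total counts ran from 18023017 to 107937386 per library (median 33849895). The libraries fell into 2 series by name. The first held wild type 1 and 2 and mutants 1 and 2, all female, and the second held wild type 3, which was female, and mutants 3 and 4, which were male. Many genes differed between the series, since 8056 of the 17621 tested genes (45.7%) passed the test of the series term. The series also differed in the alignment folder named in the file headers, so that library preparation and alignment cannot be told apart. *Rreb1* itself was counted at 17.7, 17.4 and 14.4 CPM (counts scaled to library size, with TMM factors) in wild type and at 20.2, 19.1, 23.7 and 10.8 CPM in the mutants. This count covers all *Rreb1* transcripts and does not single out the one that the insertion removes. Its log2 fold change was 0.20 (SE 0.23, edgeR adjusted p = 0.640). By Northern blot, the paper reports that mutant brain lacks the predominant *Rreb1* transcript. It also reports no signal in mutant brain from an in situ probe to all *Rreb1* transcripts. The count here did not show such a loss, and the reason was not tested.

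Purkinje cell markers held far more counts than the markers of other cells. The 15 Purkinje cell markers summed to 48242 to 54107 CPM in wild type and 43974 to 59224 CPM in the mutants. Of these 15, 4 are among the 6 genes or the other genes of the route described below, *Itpr1*, *Car8* and *Rgs8* included. The sum is thus in part made of genes described here. Only *Sez6l* among the 15 passed the test (log2 fold change 0.85). Markers of other cells were low, and the median log2 fold change of each list was positive, though not every list rose in sum. Unipolar brush cell markers summed to 838 to 918 CPM in wild type and 736 to 876 CPM in mutants. Granule cell markers, led by *Fat2* and *Cbln3*, summed to 445 to 543 CPM in wild type and 597 to 1193 CPM in mutants (median log2 fold change 0.54, 0 of 10 called), and oligodendrocyte markers, led by *Mbp*, to 508 to 739 and 691 to 1240 CPM (0.56, 2 of 12 called). For Bergmann glia and astrocytes, led by *Hopx* and *Gdf10*, the sums were 488 to 559 and 456 to 703 CPM (0.57, 3 of 12 called). Of those called, *Gfap* (1.04) and *Timp4* (0.95) were higher in the mutants and *Hopx* (-0.82) was lower. Median log2 fold changes were 0.31 for interneurons (*Prkcd* and *Cdh22* highest), 0.02 for unipolar brush cells (*Eomes* among them), 0.63 for microglia (*Csf1r* among them), 0.23 for endothelial cells and pericytes (*Slc2a1* and *Rgs5*), 0.92 for choroid plexus (*Clic6* and *Ttr*) and 0.79 for blood (*Hbb-bs* and *Hba-a1*), with none of these genes called and no marker at 0 in every library. The part of these cells in the values below was not tested. In ribosome-bound RNA pulled from whole cerebellum, a change in the number of cells of a type and in RNA per cell cannot be told apart.

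None of the 6 genes passed the test of a difference between wild-type and *nm3888*-/- Purkinje cells. In edgeR's quasi-likelihood test with the library series as a term, 0 of 6 had an adjusted p under 0.05 and 0 of 6 an unadjusted p under 0.05, against 1504 of the 17621 genes tested (8.54%) that passed after adjustment, 455 higher (2.58%) and 1049 lower (5.95%) in the mutants. DESeq2 also called 0 of 6. The largest log2 fold change among the 6 was 0.15, and 36.5% of all tested genes lay at or under that size. These are among the best counted genes of the data: 171 tested genes had a wild-type mean at least as high as *Gnaq*, the lowest of the 6, and 32 of those (18.7%) were called. The standard errors of the 6 log2 fold changes were 0.10 to 0.17, with *Itpr1* (0.16) and *Car8* (0.17) the highest. The median was 0.11 over those 171 genes and 0.17 over all genes tested. The wild-type and mutant libraries overlapped for each of the 6, whereas 14.1% of all tested genes had no overlap (5.16% with the mutants above and 8.92% below).

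**Figure D1:**
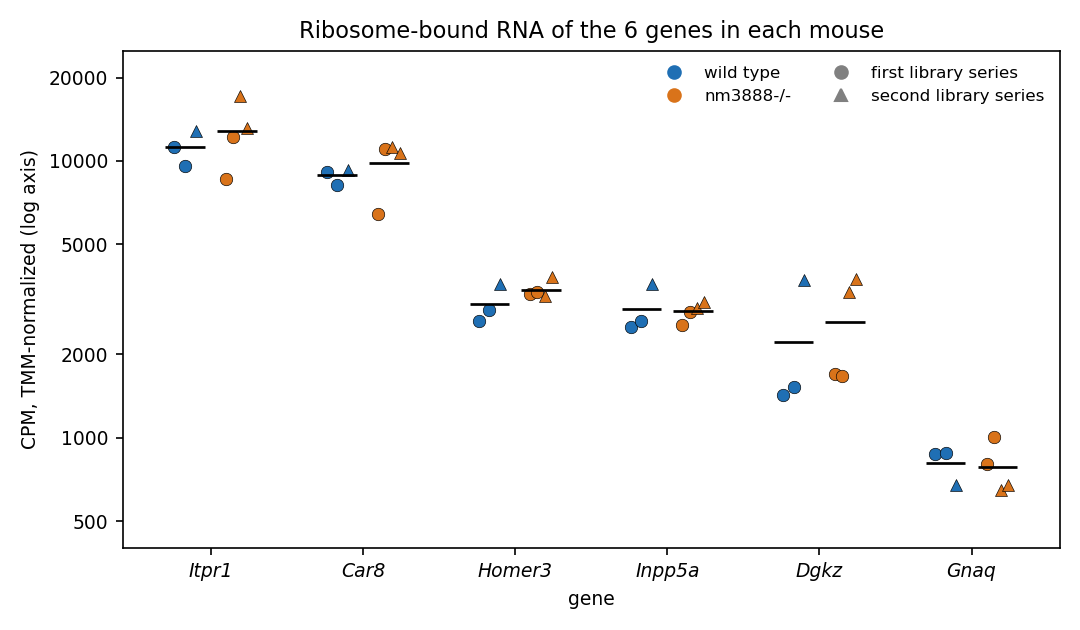
CPM (log axis) of the 6 genes in each of the 3 wild-type (blue) and 4 *nm3888*-/- (orange) mice, circles for the first and triangles for the second library series, with a black bar at the group mean. The genotypes overlap for each gene, and *Dgkz* separates by series, at 1430 to 1700 CPM in the first and 3349 to 3729 CPM in the second.

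*Homer3*, at the level of the receptor scaffold, was measured at 2647, 2893 and 3578 CPM in wild type and at 3312, 3364, 3237 and 3792 CPM in mutants 1 to 4. All mutants lay above wild type 1 and 2, and wild type 3 lay among them. The means were 3039 ± 482 (SD, n = 3) and 3426 ± 249 (SD, n = 4) CPM, and a fit with no series term gave a log2 fold change of 0.17. With the series term it was 0.15 (SE 0.11, 95% confidence interval -0.09 to 0.39, edgeR adjusted p = 0.442). The interval runs from 0.938 to 1.31 times the wild-type level.

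*Gnaq*, which carries the signal from the receptor to phospholipase C, was counted at 871, 879 and 676 CPM in wild type and at 806, 1008, 647 and 675 CPM in the mutants. The second-series libraries of both genotypes were the low ones. Group means were 809 ± 115 and 784 ± 165 CPM, and a fit with no series term gave a log2 fold change of -0.04. With the series term it was 0.02 (SE 0.10, interval -0.21 to 0.25, edgeR adjusted p = 0.937). No gene of the 6 had a smaller difference in the fit with the series term. On the fold scale its interval covered 0.864 to 1.19 times wild type.

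*Itpr1*, the calcium release channel itself, drew more counts in wild type than any other gene of the data. Wild-type levels were 11182, 9583 and 12801 CPM, and mutant levels were 8635, 12210, 17100 and 13137 CPM. The mutant libraries thus held both the lowest and the highest value. The means were 11189 ± 1609 and 12770 ± 3478 CPM, and a fit with no series term gave a log2 fold change of 0.19. With the series term it was 0.10 (SE 0.16, interval -0.26 to 0.45, edgeR adjusted p = 0.747). The spread within the mutants was far wider than either step.

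*Car8*, which restrains the receptor, showed the same wide spread in mutants. It stood at 9105, 8205 and 9264 CPM in wild type, and at 6434, 11010, 11263 and 10675 CPM in mutants 1 to 4. Mutants 2 to 4 lay above all wild-type mice and mutant 1 lay below them all. The means were 8858 ± 571 and 9846 ± 2287 CPM, and a fit with no series term gave a log2 fold change of 0.15. With the series term it was 0.10 (SE 0.17, interval -0.29 to 0.50, edgeR adjusted p = 0.766). This was the widest interval of the 6, from 0.816 to 1.41 times wild type. Without mutant 1 the log2 fold change was 0.30 (edgeR adjusted p = 0.145).

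*Inpp5a*, which ends the IP3 signal, was at 2505, 2639 and 3596 CPM in wild type and 2552, 2838, 2940 and 3103 CPM in the mutants. Wild type 3 had the highest level and the other libraries lay close together. It was the one gene of the 6 with a lower fitted level in the mutants, at -0.06 on the log2 scale (SE 0.10, interval -0.29 to 0.17, edgeR adjusted p = 0.759), for means of 2913 ± 595 and 2858 ± 231 CPM. Without wild type 3 the estimate was 0.07.

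*Dgkz*, on the diacylglycerol arm, was found at 1430, 1525 and 3709 CPM in wild type and at 1700, 1664, 3349 and 3729 CPM in mutants. Its level followed the library series and not the genotype. The series term was 1.18 on the log2 scale (second minus first series, edgeR adjusted p = 7e-06), and 5.10% of all genes had a series difference at least that high. Within the fit that holds the series apart, the genotype difference was 0.08 (SE 0.10, interval -0.14 to 0.30, edgeR adjusted p = 0.647). The raw means, 2221 ± 1289 and 2610 ± 1083 CPM, carry the series difference in their SD.

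Series differences of the other members were smaller. *Gnaq* was lower in the second series (-0.42, adjusted p = 0.00825), and *Itpr1* (0.44, 0.0433) and *Inpp5a* (0.29, 0.0424) were higher in it by the same edgeR test. *Homer3* (0.19, 0.167) and *Car8* (0.24, 0.294) did not pass. Over all genes, the quartiles of the series difference ran from -0.39 to 0.44.

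Taken within each series, the 6 genotype differences ran from -0.25 to 0.27 on the log2 scale. In the first series the mean log2 CPM of the mutants minus that of wild type was 0.04 for *Gnaq*, 0.27 for *Homer3*, -0.01 for *Itpr1*, -0.04 for *Car8*, 0.07 for *Inpp5a* and 0.19 for *Dgkz*. The second series, with 1 wild-type mouse, gave -0.03, -0.03, 0.23, 0.24, -0.25 and -0.07 in the same order. For *Itpr1* and *Car8* the sign in the first series depends on the averaging, since their mean CPM was higher in the mutants, at 10422 against 10382 and 8722 against 8655. Mutants and wild type did not overlap for *Homer3* and *Dgkz* in the first series (2 of 6, against 49.1% of all tested genes), nor for *Gnaq*, *Itpr1*, *Car8* and *Inpp5a* in the second (4 of 6, against 70.6%). Neither share was above that of all genes. The difference between the series was tested as an interaction term and passed for none of the 6, with estimates of -0.32 (*Inpp5a*) to 0.23 (*Itpr1* and *Car8*) and edgeR adjusted p of 0.923 to 0.990. That test called 14 genes of 17621 (0.0795%).

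Together the 6 genes took 2.72, 2.47 and 3.19% of all counts in the wild-type libraries and 2.48, 3.18, 4.03 and 3.56% in mutants 1 to 4. The smallest count among them was 15380, for *Gnaq* in mutant 1.

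Per kilobase of counted exon, which allows levels of different genes to be compared, *Car8* was the most abundant of the 6. Its wild-type level was 2299 ± 148 CPM per kilobase (SD, n = 3), the 6th highest of all genes. *Homer3* followed at 884 ± 140 and *Itpr1* at 611 ± 87.8, and then *Inpp5a* at 516 ± 105, *Dgkz* at 354 ± 206 and *Gnaq* at 131 ± 18.6 CPM per kilobase. In the mutants the levels were 2555 ± 594 for *Car8*, 996 ± 72.5 for *Homer3*, 697 ± 190 for *Itpr1*, 506 ± 41.0 for *Inpp5a*, 416 ± 173 for *Dgkz* and 127 ± 26.6 CPM per kilobase for *Gnaq*. The order was the same in the 3 wild-type libraries and mutants 1 and 2. In mutants 3 and 4, both of the second series, *Dgkz* stood above *Inpp5a*. In wild type 3 of that series *Dgkz* was at 592 and *Inpp5a* at 637 CPM per kilobase. The wild-type SDs of that pair overlapped, as did those of *Itpr1* and *Inpp5a* and those of *Dgkz* and *Gnaq*. *Dgkz* nevertheless lay above *Gnaq* in each library, its SD being widened by the series. The channel gene that led by counts came after *Car8* and *Homer3* per kilobase, its counted length being the longest of the 6.

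**Figure D2:**
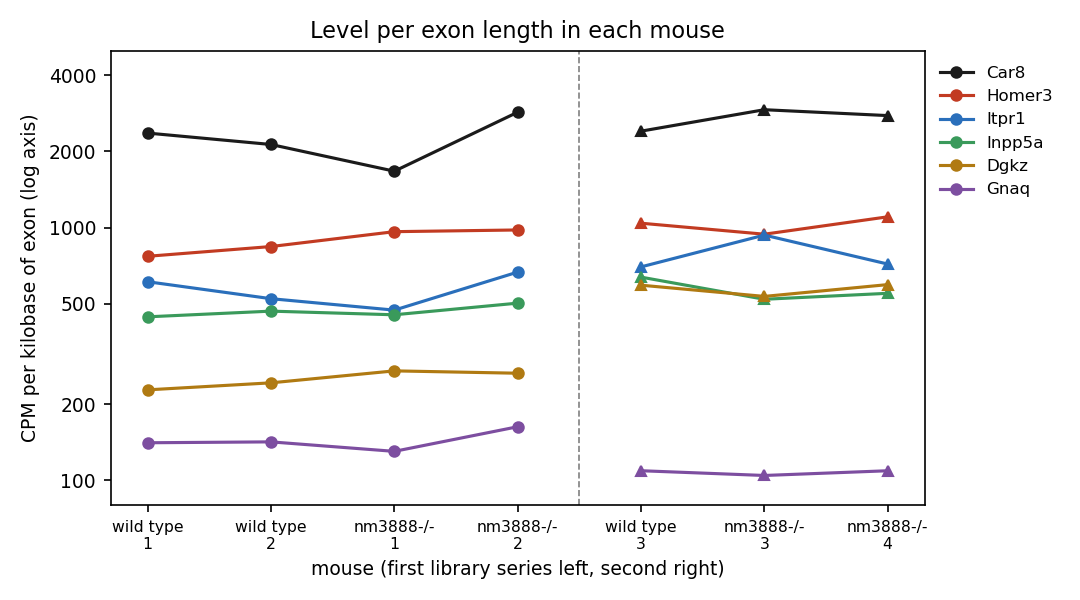
Level of each of the 6 genes in CPM per kilobase of exon (log axis) in the 7 libraries, 1 colored line a gene, with the first library series left of the dashed line and the second right of it. *Car8* is highest and *Gnaq* lowest in each library, and *Dgkz* lies above *Inpp5a* in mutants 3 and 4 alone, both of the second series. In wild type 3 of that series *Dgkz* is at 592 and *Inpp5a* at 637.

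Each of the 6 genes had the highest per-kilobase level in its set of related genes. For *Inpp5a* the set was not a family but this gene and the 3 IP3 kinase genes, and other phosphatases of the route were left out. *Itpr1* made up 99.9% of the per-kilobase level of the 3 IP3 receptor genes in both genotypes. *Homer3* made up 99.7 ± 0.0684% of the Homer level in wild type and 99.8 ± 0.0348% in mutants, and *Car8* 99.6 ± 0.246% and 99.6 ± 0.118% of that of the carbonic anhydrase related genes. *Gnaq* shared its family with *Gna11*, taking 83.1 ± 3.06% in wild type and 84.3 ± 2.33% in the mutants. Among RNAs for enzymes that act on IP3, *Inpp5a* took 59.7 ± 0.801% and 60.1 ± 2.65% of the combined per-kilobase level of the phosphatase and the IP3 kinases, and the kinase gene *Itpka* took 40.0 ± 0.841% and 39.7 ± 2.64%. Among 10 diacylglycerol kinases *Dgkz* accounted for 75.2 ± 8.22% and 79.9 ± 5.19%, followed by *Dgkg* at 10.6 ± 2.36% and 9.69 ± 1.25%. Shares of *Dgkz* were lowest in wild type 1 (70.0%) and highest in mutant 4 (86.0%).

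A list of 73 other genes of the route, in 10 roles, was read in the same fit. Of the 70 that could be tested, 3 were higher and 10 lower in *nm3888*-/- mice and 57 did not pass (18.6% called, against 8.54% of all genes), and the median log2 fold change was -0.08, against 0.03 over all genes. The groups had no overlap for 15 of the 70 (21.4%, against 14.1%). The list was chosen with earlier results of these data known, so these shares describe it and are no test of the route. *Gna14*, *Plcb2* and *Itprip* had too few counts to test, at most 15 in any library.

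Along the main chain, *Gna11*, *Plcb4*, *Itpka*, *Homer1* and *Rgs8* did not pass. *Gna11*, the second Gq subunit, was 107 ± 7.05 CPM in wild type and 94.0 ± 4.2 CPM in mutants with no overlap (-0.19, SE 0.09, edgeR adjusted p = 0.251). *Plcb4*, the phospholipase, gave -0.18 (SE 0.18, 0.577) and *Itpka*, which phosphorylates IP3, -0.09 (SE 0.12, 0.696). *Homer1*, the scaffold with short and long forms, was at -0.03 (SE 0.14, 0.936). *Rgs8*, a regulator of G protein signaling, stood second of all genes by wild-type counts and gave 0.01 (SE 0.10, 0.966).

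**Figure D3:**
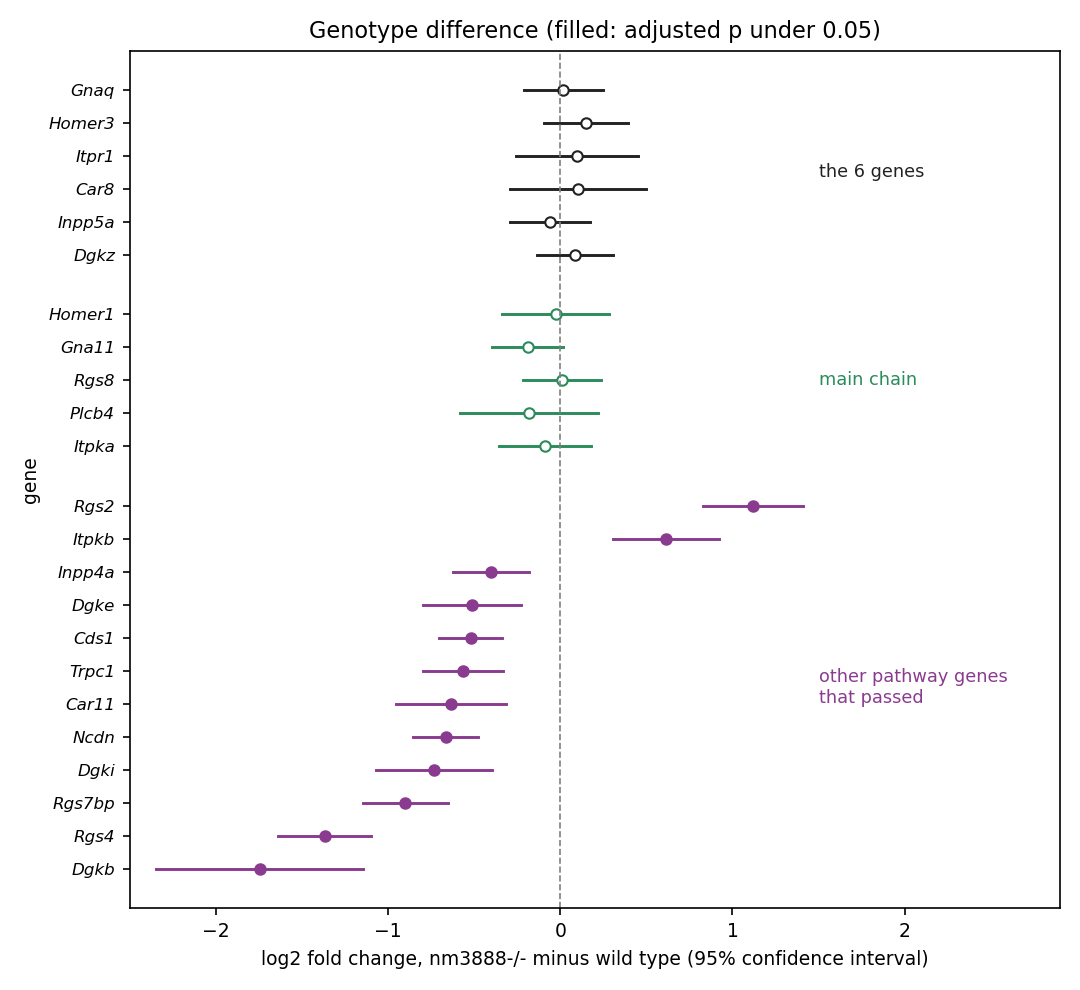
Log2 fold change, mutant minus wild type, with its 95% confidence interval, for the 6 genes, for main chain genes and for other pathway genes with an edgeR adjusted p under 0.05 (filled), as named in the text. The intervals of the 6 genes all include 0, from -0.29 at the low end to 0.50 at the high end, and the filled points run from -1.75 (*Dgkb*) to 1.12 (*Rgs2*).

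Genes that did pass included a partner of the receptor and regulators of the G protein. *Ncdn*, whose product neurochondrin binds group I metabotropic glutamate receptors, fell from 778, 835 and 876 CPM to 535, 505, 535 and 534 CPM (-0.67, SE 0.08, edgeR adjusted p = 0.00184). The mutants lay close together and well below all wild-type mice.

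Regulators of G protein signaling moved in both directions. *Rgs4*, which speeds GTP hydrolysis by Gq, was at 39.7, 43.5 and 34.3 CPM in wild type and 14.2, 15.4, 13.6 and 16.4 CPM in mutants (-1.37, SE 0.12, edgeR adjusted p = 2.67e-04). *Rgs2*, which acts on Gq by the same reaction, rose from 10.4, 13.2 and 11.1 CPM to 22.8, 28.0, 24.2 and 24.7 CPM (1.12, SE 0.13, 0.00118). *Rgs7bp*, a membrane anchor for another group of these regulators, fell from 1333, 1212 and 897 CPM to 590, 762, 493 and 484 CPM (-0.90, SE 0.11, 0.00145). The abundant member *Rgs8* did not pass, and both called *Rgs* genes had under 50 CPM in each library.

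Among the enzymes of inositol lipids and diacylglycerol, all called genes were lower in the mutants except an IP3 kinase. Calls over all genes also leaned that way, with 1049 lower and 455 higher. *Dgkb*, a calcium-regulated relative of *Dgkz*, was at 40.7, 33.7 and 28.9 CPM in wild type and 6.6, 11.03, 15.1 and 8.56 CPM in mutants (-1.75, SE 0.26, edgeR adjusted p = 0.00479), and its share of the diacylglycerol kinase level was 0.775 ± 0.374% and 0.187 ± 0.0681%. *Dgke* (-0.51, SE 0.13, 0.0396) and *Dgki* (-0.73, SE 0.15, 0.0178) passed with overlapping libraries. *Cds1*, which makes CDP-diacylglycerol for the resynthesis of PIP2, fell from 635 ± 9.66 to 442 ± 13.5 CPM (-0.52, SE 0.08, 0.00561). *Inpp4a*, an inositol polyphosphate 4-phosphatase, fell from 908 ± 42.7 to 678 ± 64.5 CPM (-0.40, SE 0.10, 0.0369), and *Trpc1*, a cation channel subunit, from 49.9 ± 0.419 to 33.7 ± 3.15 CPM (-0.56, SE 0.10, 0.0114). *Itpkb*, an IP3 kinase, rose from 8.38 ± 0.532 to 13.5 ± 2.70 CPM (0.61, SE 0.13, 0.0255). *Car11*, a relative of *Car8*, passed with overlapping libraries (-0.63, SE 0.14, 0.0264).

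All 13 kept their sign in each of the 15 alternative fits. *Ncdn*, *Rgs2*, *Rgs4*, *Rgs7bp* and *Dgkb* passed whichever library was left out, and *Cds1* in every case but without wild type 3 (edgeR adjusted p = 0.0615). *Dgki* and *Trpc1* did not pass when wild type 1, 2 or 3 was left out (adjusted p up to 0.163 and 0.0899). *Itpkb*, *Inpp4a*, *Dgke* and *Car11* likewise did not pass when any 1 of the wild-type mice was left out, with adjusted p up to 0.213, 0.201, 0.123 and 0.292. They were also lost without mutants 1 or 4 (*Itpkb*), 1, 3 or 4 (*Inpp4a*), 1, 2 or 4 (*Dgke*) and 2 or 4 (*Car11*). Without 1 wild-type mouse, 6 or 7 of the 13 passed. A fit that used the replicate numbers as a block, without the series term, kept 7 of the 13, and those lost had edgeR adjusted p of 0.0955 (*Itpkb*), 0.127 (*Inpp4a*), 0.126 (*Dgke*), 0.0592 (*Dgki*), 0.0623 (*Trpc1*) and 0.0989 (*Car11*). With no series term 5 passed, *Rgs7bp* (0.0996) and *Dgkb* (0.0545) being lost as well. With sex in place of the series 0 passed, at adjusted p of 0.0506 for *Rgs4* and 0.0627 for *Ncdn*. Both male mice were mutants of the second series, so that sex, series and genotype overlap in this design.

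How alike the 6 genes varied from mouse to mouse was measured as the root mean square difference in log2 CPM over the 7 libraries, after the mean of its series was taken from each gene. *Homer3* and *Dgkz* were closest at 0.0425, followed by *Gnaq* and *Inpp5a* at 0.0841, *Inpp5a* and *Dgkz* at 0.0901, and *Itpr1* and *Car8* at 0.112. *Homer3* and *Car8* were farthest apart, at 0.271. *Itpr1* and *Car8* were both low in mutant 1 and high in mutant 2, and they varied most around their series mean (0.192 and 0.225), against 0.0888 to 0.124 for the other 4. These are descriptions over 7 libraries, and the values of all genes in a library come from the same sequencing.

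**Figure D4:**
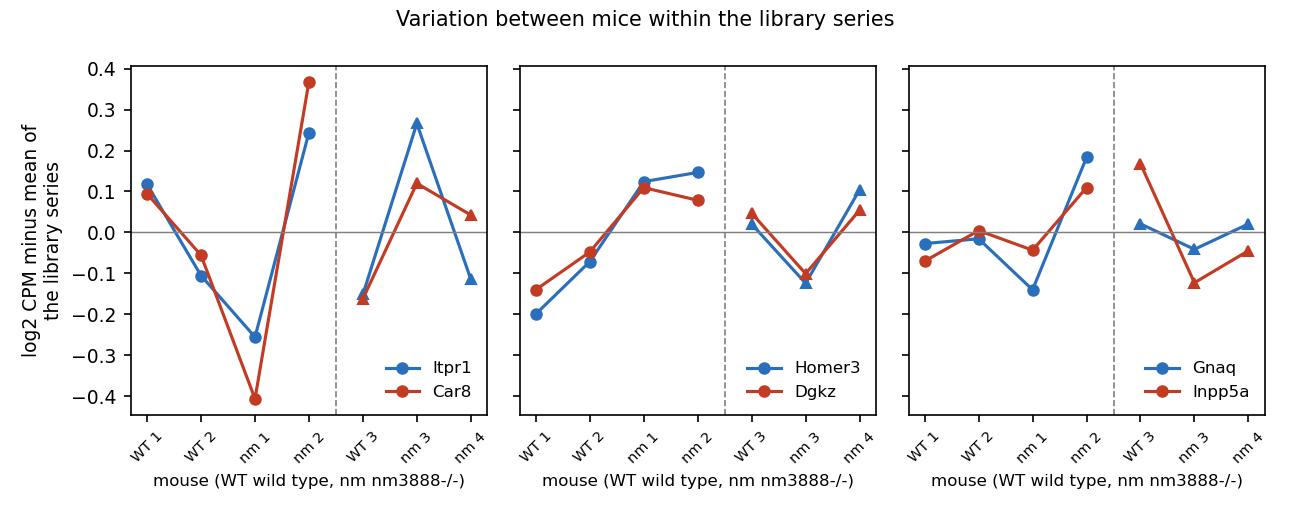
Log2 CPM of the 6 genes in each library (WT wild type, nm mutant) after the mean of the library series is taken away, 2 genes a panel, with the dashed line between the series. *Itpr1* and *Car8* vary most, low in mutant 1 and high in mutant 2, and the lines of *Homer3* and *Dgkz* lie closest together.

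By the same measure, over 11379 genes, the nearest genes to *Homer3* were *Aimp2* (0.0184) and *Med27* (0.0204), and those to *Dgkz* were *Zfp219* (0.0199) and *Ints5* (0.0218). *Itpr1* lay nearest *Vps50* (0.0248), *Car8* nearest *Sirt1* (0.0360) and *Amot* (0.0550), and *Inpp5a* nearest *Apbb3* (0.0246) and *Clmn* (0.0253). The median distance of these 5 genes to all genes was 0.177 to 0.278. For *Gnaq* the nearest were *Gm15289* (0.0255) and *Gm5940* (0.0301), which had 377 to 888 counts per library in the first series and 0 or 1 in the second, so that this likeness rests on the first series alone.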

How the data were processed

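RNA bound to hemagglutinin-tagged ribosomes was sequenced from the cerebella of 3 wild-type and 4 nm3888-/- mice. The authors removed duplicates and trimmed reads with fastp, aligned them to mm10 and deposited raw counts of read pairs per gene from featureCounts (version 2.0.1 and GENCODE M25 per the file headers; paired, both ends mapped, reverse-stranded). The headers place the alignments of the first series in a Bowtie2 folder and those of the second in a STAR folder, where the methods name Bowtie2. Symbols matched 55141 of 55401 genes (99.53%) in GENCODE M21.

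Genotypes were compared with edgeR 4.0.16 (quasi-likelihood, TMM, filterByExpr, library series as a term, limma 3.58.1, R 4.3.3) over 17621 genes, with Benjamini-Hochberg adjustment and a threshold of 0.05. The fit was tested on simulated data. CPM use TMM factors, and likeness of patterns used log2 of CPM plus 0.5 over tested genes with a mean over 2. Alternatives were RLE scaling, no filter, no series term, sex or the replicate number in place of the series, each series alone, each library left out, and DESeq2 1.42.0. Same-numbered wild-type and mutant libraries correlated at 0.905, 0.947 and 0.955 in their deviations from group means. Every pair within a series correlated at 0.905 to 0.958 and every pair across series at -0.962 to -0.913, so that the numbers follow the series.

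The 6 genes, the pathway list and the marker lists were chosen with earlier results of these data known. Named genes were the 6, *Rreb1*, main chain genes, up to 4 called genes per role and direction by adjusted p, the 2 nearest patterns of each of the 6, and the 2 markers with most counts of each list. Some genes that this rule names are not reported here.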

Additional observations from a re-analysis of the deposited data

Results flagged for a closer look

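In groups of 4 libraries, a lowest or highest value was marked where its gap to the next value took up most of the group's range (Dixon's test at the 95% level), which chance alone does in about 1 group in 20. Of 28 genes checked among the 4 mutants, 3 had such a value. *Car8* stood at 6434 CPM in mutant 1, below the other mutants at 10675 to 11263 CPM. *Inpp4a* stood at 774 CPM in mutant 2, above the others, and *Ncdn* at 505 CPM in mutant 2, below the others. Mutant 1 also had the lowest total count of the 7 libraries, and the part of depth in its *Car8* value was not tested.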

How the results depend on the processing

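None of the 6 genes passed in any of the 15 alternatives, and their small log2 fold changes changed sign in some. *Gnaq* became -0.0441 with no library series term and -0.0281 in the second series alone, where *Homer3* became -0.0236 and *Dgkz* -0.0654. With sex in place of the series, *Itpr1* became -0.1023, *Car8* -0.0223 and *Dgkz* -0.4012. *Inpp5a* became 0.0689 in the first series alone. Leaving out 1 library at a time gave -0.0744 (without mutant 2) to 0.0866 for *Gnaq*, 0.0978 to 0.2681 for *Homer3*, -0.0124 (mutant 2) to 0.2369 for *Itpr1*, -0.0915 (mutant 2) to 0.2953 for *Car8*, -0.1307 to 0.0664 (wild type 3) for *Inpp5a* and 0.045 to 0.186 for *Dgkz*. The same ranges were -0.0309 to 0.3587 for *Rreb1*, -0.139 to 0.1052 for *Homer1*, -0.0566 to 0.0715 for *Rgs8*, -0.3682 to 0.0117 for *Plcb4* and -0.188 to 0.0847 for *Itpka*. *Rgs8* also became -0.0009 with no filter, -0.0353 with no series term and -0.0789 in the second series alone, *Itpka* 0.0874 in the first and *Homer1* 0.1426 in the second.

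The 13 called pathway genes (10 lower) became 5 (3 lower) with no series term, 0 (0 higher and 0 lower) with sex, 7 (5 lower) with the replicate block and 6 (4 lower) in the first series alone, and ranged from 6 to 13 (4 to 10 lower) without 1 library. The replicate block changed no call of the 6 genes. Over all genes, 1504 calls became 309 with no series term, 102 with sex, 812 with the block, 679 in the first series alone, 599, 751 and 889 without wild type 3, 2 and 1, and 917 without mutant 2. By counts not divided by length, the wild-type family shares moved to 88.12% for *Gnaq*, 99.02% for *Homer3*, 99.94% for *Itpr1* and 64.75% for *Dgkz*. The share of *Inpp5a* in its set with the IP3 kinases moved to 81.88%. For these shares the division by length alone sets the change. The cause of the other changes was not tested. The second series has 1 wild-type mouse, and a difference as large as the interval of a gene allows, up to 0.50 on the log2 scale for *Car8*, lies within the error of these libraries.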

Other observations

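One gene inside *Gnaq*, chosen after its values were seen, differed between the library series more than *Gnaq* did. *Gm10819* lies on the opposite strand and shares no exon bases with *Gnaq*. Its raw counts were 7920 and 8970 in wild type 1 and 2 and 8427 and 13088 in mutants 1 and 2, and 236, 170 and 214 in wild type 3 and mutants 3 and 4, whose libraries were deeper than any of the first series. *Ddx49*, the opposite-strand neighbor of *Homer3*, had 152 to 1163 counts per library.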
